A study of Homo sapiens with 9 samples.

Results

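The 10 genes described here are G1 cyclins, cyclin-dependent kinases and checkpoint regulators of the cell cycle, taken by name from a table of 14839 genes: CCND1, CCND3, CDK4, CDK6, CCNE1, CCNE2, CDC25A, WEE1, CHEK1 and CDKN1B. All 10 were measured in all 9 libraries. The libraries were made from polyA RNA of MP41, a uveal melanoma cell line that carries a GNA11 mutation and was grown in RPMI with fetal bovine serum. The cells were collected at 0 h, before transfection, or 6, 12, 24 and 48 h after transfection with 66 nM of a synthetic miR-16 or of a control mimic (miR-CTR), with RNAiMAX in each case. The 0 h library bears the control mimic in its label, although the cells were harvested before it was added. The series asks which RNAs fall or rise when miR-16 is added. Each condition is 1 library of 1 cell line, so differences carry no replicate error and no p-value was computed. In the cell line, 7 of 7 melanocyte markers were measured, at 12.29 (DCT) to 17.88 (TYRP1) at 0 h, and only COL1A1 (8.31) of 6 markers of leukocytes, endothelium, epithelium and fibroblasts was in the table.

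In G1, D-type cyclins bind CDK4 and CDK6 and start the phosphorylation of the retinoblastoma protein, which releases E2F transcription factors. E2F then drives genes for DNA synthesis and also the E-type cyclins, which bind CDK2 and complete the step. CDC25A removes the inhibitory phosphate that WEE1 places on CDKs, CHEK1 sends CDC25A to degradation when DNA is damaged or replication stalls, and CDKN1B (p27) inhibits cyclin E-CDK2. A microRNA pairs through its seed with sites in the 3′UTR of messenger RNAs, which are then less translated and often degraded, and miR-16 is known for repressing cell cycle genes in this way.

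The mature sequence of miR-16-5p (RefSeq) is shown first, with the seed (bases 2 to 8) in capitals, because all matches below are read from it. The study's own sequence list concerns the biotinylated RNAs only and has this sequence in its miR-CTR row and another in its miR-16 row. The sequences of the transfected mimics are not given in the sources used here.
miR-16-5p: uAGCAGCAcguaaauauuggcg
Matches were sought on the mRNA strand of the longest annotated 3′UTR of each gene (GENCODE 29, GRCh38). An 8mer is TGCTGCTA, a 7mer-m8 is TGCTGCT without the final A, and a 7mer-A1 is GCTGCTA without the leading T. Every 8mer found in the 10 genes is printed with its surroundings and with the match in capitals, and so are the matches of CCND3, a called gene with 7mers only.
CCND1 8mer (chr11:69653304-69653333, + strand): ttcacattgttTGCTGCTAttggaggatca
CCND3 7mer-m8 (chr6:41935309-41935337, − strand): attgacagcttTGCTGCTgaaggctcatt
CCND3 7mer-A1 (chr6:41935155-41935183, − strand): gtggccaaggaGCTGCTAtagcctggggt
CCNE1 8mer, upstream (chr19:29824013-29824042, + strand): cgtgctcccgaTGCTGCTAtggaaggtgct
CCNE1 8mer, downstream (chr19:29824251-29824280, + strand): tgttttgtaagTGCTGCTAtatctatccat
CDC25A 8mer (chr3:48158253-48158282, − strand): ggtactggggcTGCTGCTAtttaagccaag
WEE1 8mer (chr11:9589135-9589164, + strand): ccttgtgaattTGCTGCTAttttagttttg
CHEK1 8mer (chr11:125655347-125655376, + strand): ggtgaatatagTGCTGCTAtgttgacatta
A match of CDK6, which hardly differed between mimics, is given for comparison.
CDK6 7mer-m8 (chr7:92608740-92608768, − strand): tcagagtgcccTGCTGCTgtctcagaggc

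Of the 10 genes, 9 held at least 1 match of 7 bases or more in that 3′UTR, and the gene without one was CDKN1B. Among the 11572 genes of the table with an annotated 3′UTR, 29.2% held such a match. An 8mer was present in 5 of the 10 (CCND1, CCNE1, CDC25A, WEE1 and CHEK1), against 4.95% of all these genes. CCNE1 had both of its 8mers in a 3′UTR of only 531 bases, and 11.1% of genes with a 3′UTR within 20% of that length held any match. At the other extreme, the 3′UTR of CDK6 spans 10219 bases and held 2 matches of the 7mer-m8 type, where 79.0% of genes of like length held a match. For the remaining genes the like-length share ran from 22.5% (CDK4) to 43.4% (CCND1). The 10 genes were chosen with earlier results of these data known, so the shares of matches serve as description only. CCNE2 had a 7mer-A1 alone. The match of CDK4 lies in a transcript with a coding sequence of 333 bases, and the transcript with the longest coding sequence, 909 bases, had none in its 3′UTR. A match describes these letters and was not tested here as a binding site. The study used a canonical miR-16 site from CCND1 as the positive control of a luciferase assay, where miR-16 lowered the activity. Whether that site is a match printed above was not checked.

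**Figure D1:**
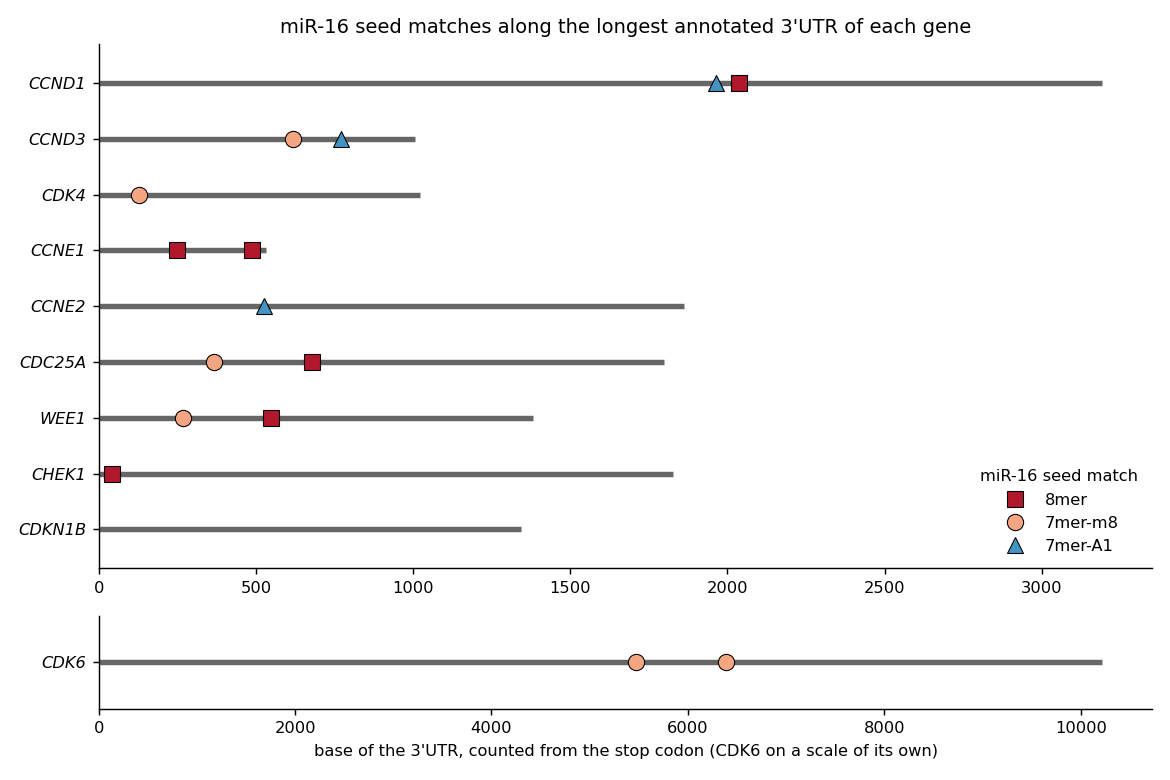
Position of miR-16 seed matches of 7 bases or more (squares, 8mer; circles, 7mer-m8; triangles, 7mer-A1) along the longest annotated 3′UTR of each gene (grey line, in bases from the stop codon). CDK6, with 10219 bases, has a scale of its own, and CDKN1B has no match.

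The values are the deposited log2 of normalised reads plus 1. The read counts that they encode summed to between 20260000 and 27350000 per library. For the 10 genes they ran from 138 reads (CCNE1, miR-16, 48 h) to 23794 reads (CCND1, miR-CTR, 48 h). The logFC is the log2 difference between miR-16 and miR-CTR at the same time, and its late value is the mean of those at 24 and 48 h. The 95% intervals given beside it cover the counting of reads only. In bulk RNA, fewer cells in a given cell cycle phase and less RNA per cell cannot be told apart.

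At the late times, 7 of the 10 genes were lower with miR-16 by more than 0.5 on the log2 scale, the threshold that the study applied, and none was higher. Of all genes, 5.73% were that much lower and 7.76% that much higher. The 10 genes were chosen with earlier results of these data known. The study itself lists CCND1, CCND3 and WEE1 among RNAs pulled down with biotinylated miR-16 that decreased after miR-16 transfection. The shares therefore serve as description only. The 7 were CDC25A, WEE1, CCND3, CCNE2, CCND1, CHEK1 and CCNE1, and the other 3 (CDK4, CDKN1B and CDK6) lay at −0.32, −0.335 and −0.10. The median late logFC of the 10 genes was −0.602, against 0.005 for all genes. The same 7 genes were lower with miR-16 at each of the 4 times, a pattern that 16.7% of all genes shared. The counting interval held both signs for CHEK1 at 12 h (−0.04, −0.129 to 0.049) and CCND3 at 6 h (−0.12, −0.261 to 0.021). For CCNE1 and CHEK1 the call rested on the 48 h libraries, since their logFC at 24 h alone was −0.46 and −0.34. The other 5 genes passed −0.5 at both 24 and 48 h, as did 2.78% of all genes.

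**Figure D2:**
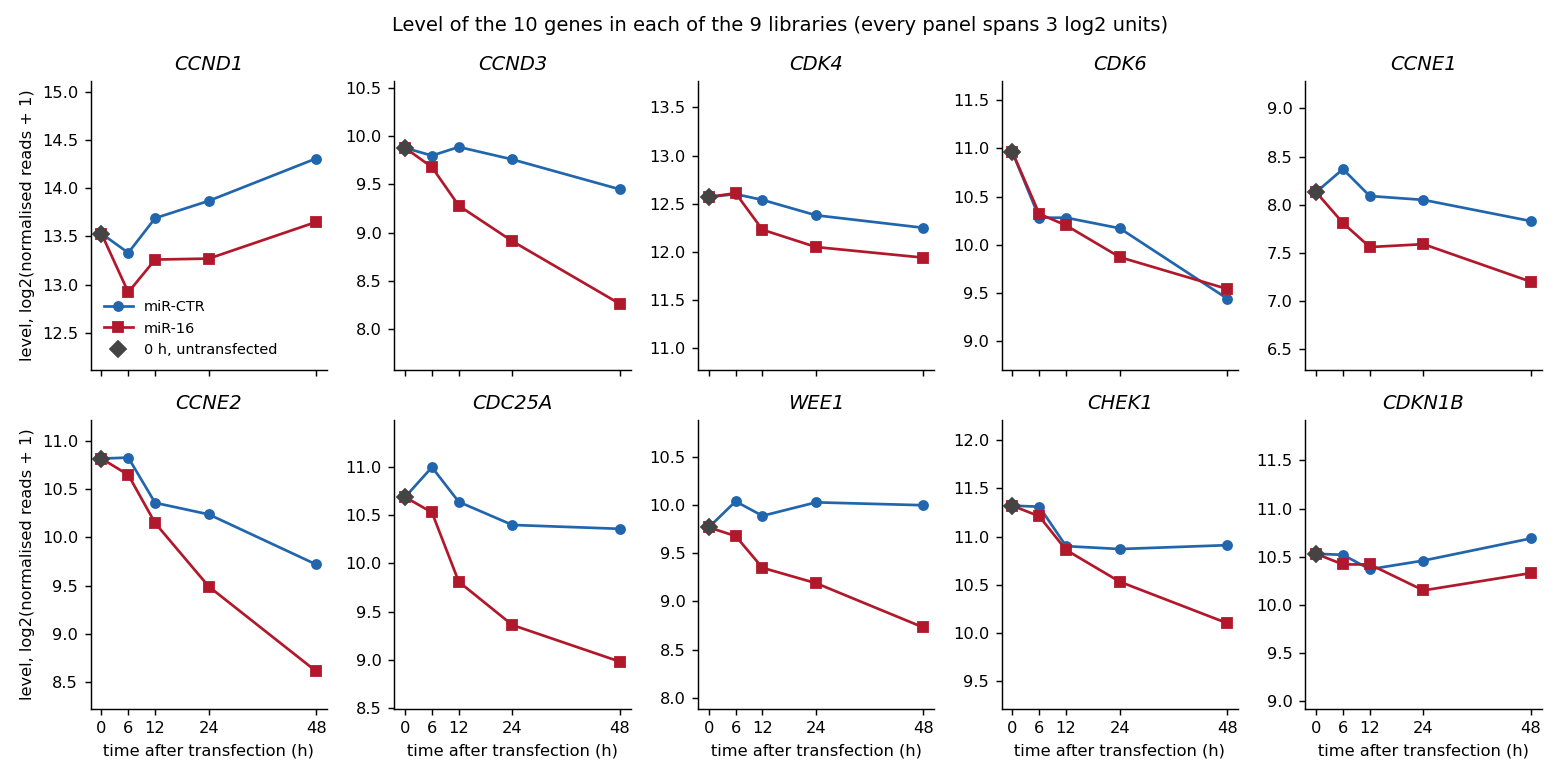
Level of each gene (y axis, log2 of normalised reads plus 1, each panel spanning 3 units) against time in hours (x axis), with 1 library per point: 0 h (grey diamond), miR-CTR (blue circles) and miR-16 (red squares). From 12 h on, the red points lie below the blue ones for every gene but CDK6 at 48 h and CDKN1B at 12 h.

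CCND1 encodes cyclin D1 and was the most abundant of the 10 per kilobase of exon sequence at 0 h, at 11.26 on a log2 scale of normalised reads per kb, with CDK4 next at 10.91. With lengths taken from a single transcript, CDK4 (11.85) came before CCND1 (11.42). The CCND1 level was 13.53 at 0 h, then 13.33, 13.69, 13.87 and 14.31 with miR-CTR at 6, 12, 24 and 48 h, and 12.92, 13.26, 13.27 and 13.65 with miR-16. Both mimics thus started with a dip at 6 h and then climbed, and the miR-16 library stood below its control at each time. The gap was already −0.41 at 6 h and −0.43 at 12 h, and it grew to −0.60 and −0.66 at the late times. As a ratio of normalised reads, the late level with miR-16 was 0.646 of that with miR-CTR (interval of the log2 difference, −0.655 to −0.605). CCND1 alone among the 10 rose past 0.5 from 0 h with miR-CTR, as 11.0% of all genes did. Its exons share 497 bases with LTO1 on the opposite strand, and the strand setting of the counting is not given in the sources used here.

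CCND3, which encodes cyclin D3, took another course. It stood at 9.88 at 0 h and at 9.80, 9.89, 9.76 and 9.45 with miR-CTR, against 9.68, 9.28, 8.91 and 8.26 with miR-16. The control libraries kept within a narrow range until 24 h, while each miR-16 library was lower than the one at the time before. Its logFC was −0.61 at 12 h, where it already passed −0.5, and reached −1.19 at 48 h (interval −1.383 to −0.997). The late ratio was 0.493, and its late logFC ranked 63 from the lowest among the 14839 genes. Per kb of exon, CCND3 at 0 h was far less abundant than CCND1, at 7.34.

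CDK4 and CDK6 are the catalytic partners of these cyclins. The level of CDK4 was 12.57 at 0 h, 12.60, 12.54, 12.38 and 12.25 with miR-CTR, against 12.61, 12.23, 12.05 and 11.94 with miR-16. It was equal under the mimics at 6 h (logFC 0.01) and lower with miR-16 from 12 h on by a nearly constant −0.31 to −0.33. The late logFC of −0.32 had a counting interval of −0.362 to −0.278 but was short of the 0.5 threshold, and 13.8% of all genes were as low or lower. Its exons share 1369 bases with TSPAN31 on the opposite strand, whose late logFC was −0.025.

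CDK6 was the gene of the 10 that fell most with the control mimic. Its level was 10.96 at 0 h, 10.28, 10.28, 10.17 and 9.44 with miR-CTR, against 10.32, 10.20, 9.87 and 9.54 with miR-16. All 8 transfected libraries were below 0 h, a pattern shared by CHEK1 and by 11.3% of all genes, and the change at 6 h was already −0.68 with miR-CTR and −0.64 with miR-16. The mimics differed by less than 0.5 at each time, with a logFC of −0.30 at 24 h and 0.10 at 48 h (interval at 48 h, −0.046 to 0.246). Against 0 h, the late level differed by −1.155 with miR-CTR and by −1.255 with miR-16.

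The E-type cyclins activate CDK2 at the end of G1. CCNE1 (cyclin E1) was counted with the fewest reads of the 10, which gives it the widest intervals. Its level was 8.13 at 0 h, 8.37, 8.09, 8.05 and 7.83 with miR-CTR, against 7.81, 7.56, 7.59 and 7.20 with miR-16. It was the only gene of the 10 past −0.5 at 6 h, at −0.56, where 3.34% of all genes were past −0.5. The counting interval of that value, −0.813 to −0.307, spans the threshold and holds the 6 h value of CDC25A (−0.47). The logFC of CCNE1 stayed between −0.46 and −0.63 afterwards. The change of its logFC from 6 to 48 h was −0.07, with a counting interval of −0.46 to 0.32 that leaves room for a sizeable shift either way. The interval of its late logFC, −0.747 to −0.343, spans the threshold.

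CCNE2 (cyclin E2) fell with time under both mimics from 12 h on. It went from 10.82 at 0 h to 10.83, 10.36, 10.24 and 9.72 with miR-CTR, against 10.65, 10.15, 9.49 and 8.61 with miR-16. The mimics were close at 6 and 12 h (logFC −0.18 and −0.21) and apart at 24 h (−0.75) and 48 h (−1.11). CCNE1 was thus past −0.5 from 6 h, apart from 24 h, and CCNE2 at 24 and 48 h only. Against 0 h, the late level of CCNE2 differed by −0.84 with miR-CTR and by −1.77 with miR-16, the largest fall of the 10 with miR-16. Its exons share 1629 bases with INTS8 on the opposite strand, which stood at 12.23 at 0 h and had a late logFC of −0.065.

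**Figure D3:**
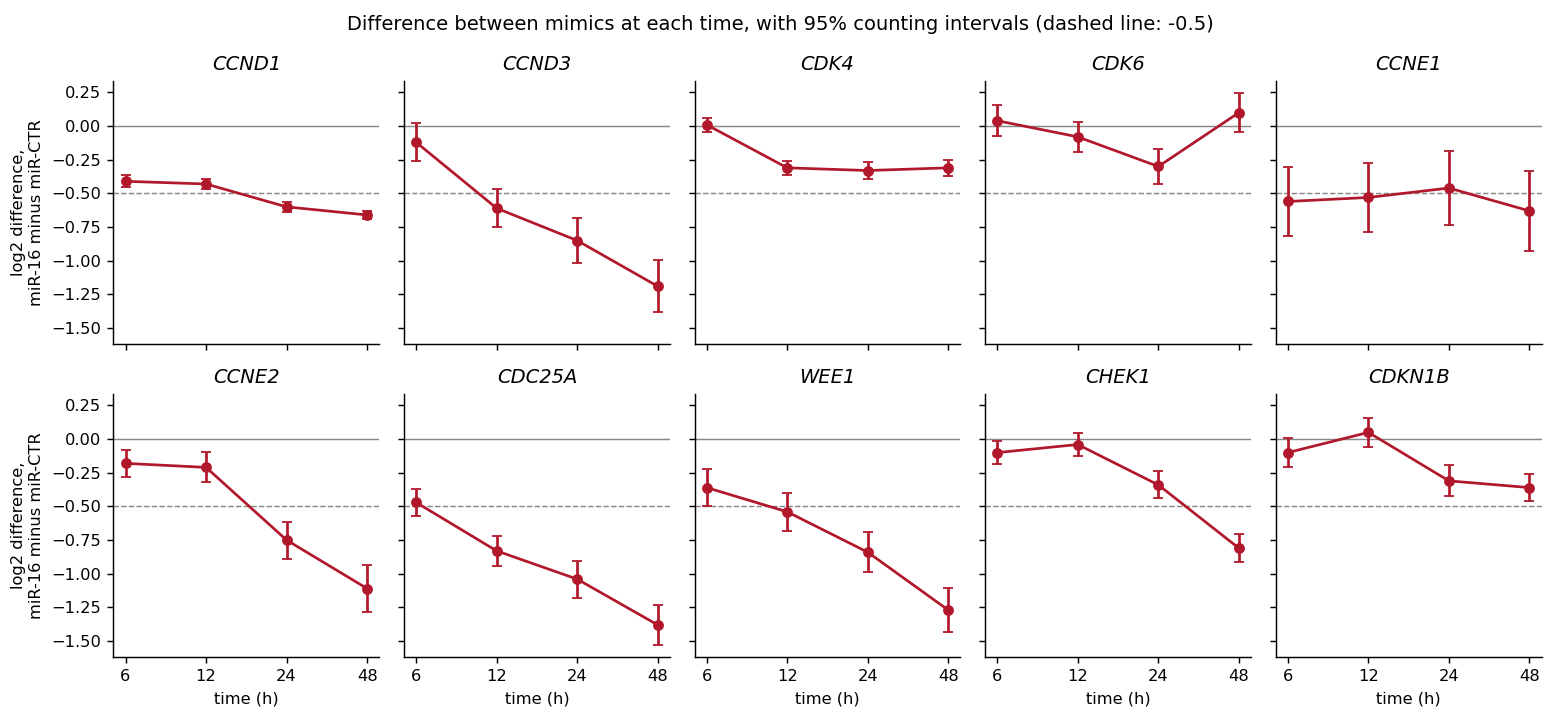
Log2 difference between miR-16 and miR-CTR (y axis) at 6, 12, 24 and 48 h (x axis, evenly spaced) for each gene, with bars for the 95% counting interval and a dashed line at −0.5. CDC25A falls from −0.47 to −1.38, CCNE1 stays between −0.46 and −0.63, and CDK6 goes to −0.30 at 24 h and back to 0.10 at 48 h.

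CDC25A, the phosphatase that activates CDK2, had the lowest late logFC of the 10, −1.21 (interval −1.311 to −1.109), and ranked 28 from the lowest of all 14839 genes. Its level was 10.69 at 0 h, 11.00, 10.64, 10.40 and 10.36 with miR-CTR, against 10.53, 9.81, 9.36 and 8.98 with miR-16. The control rose slightly at 6 h and then lay below the starting level, while the miR-16 libraries fell at every step. The logFC deepened from −0.47 at 6 h to −0.83, −1.04 and −1.38, and at 48 h the normalised reads were 0.384 of those with miR-CTR. CDC25A and CCNE1 were the 2 genes whose mean logFC over 6 and 12 h passed −0.5, at −0.65 and −0.545, as did 1.45% of all genes. The counting interval of this mean spans the threshold for CCNE1 (−0.726 to −0.364) but not for CDC25A (−0.726 to −0.574).

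WEE1, the kinase that opposes CDC25A, was lower with miR-16 than with miR-CTR, as its opponent was. From 0 h with miR-CTR, the late change was 0.245 for WEE1 and −0.31 for CDC25A. It stood at 9.77 at 0 h, at 10.04, 9.89, 10.03 and 10 with miR-CTR, against 9.68, 9.35, 9.19 and 8.73 with miR-16. All 4 control libraries were above 0 h and all 4 miR-16 libraries were below it. This pattern was held by WEE1 alone among the 10 and by 0.660% of all genes. Its smallest steps from 0 h had counting intervals that held both signs: −0.09 with miR-16 at 6 h (−0.234 to 0.054) and 0.12 with miR-CTR at 12 h (−0.013 to 0.253). The difference between mimics grew at each time, through −0.36, −0.54 and −0.84 to −1.27, and the late ratio was 0.481.

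CHEK1, the checkpoint kinase downstream of ATR, differed between the mimics at the late times. Its level was 11.32 at 0 h, 11.31, 10.90, 10.87 and 10.91 with miR-CTR, against 11.21, 10.86, 10.53 and 10.10 with miR-16. By 12 h the level was below that at 0 h by about as much with either mimic (logFC −0.04). The control libraries then kept their level and the miR-16 libraries fell further. The mimics differed by −0.34 at 24 h and by −0.81 at 48 h, and the late logFC was −0.575 (interval −0.648 to −0.502). Its exons share 80 bases with STT3A on the same strand, whose late logFC was 0.09.

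CDKN1B, the only CDK inhibitor of the 10 and the only one without a match, had a late change from 0 h with miR-16 of −0.29, smaller than that of the others except CCND1. Its level was 10.53 at 0 h, 10.52, 10.37, 10.46 and 10.69 with miR-CTR, against 10.42, 10.42, 10.15 and 10.33 with miR-16. The mimics were alike at 6 and 12 h (logFC −0.10 and 0.05) and apart by −0.31 and −0.36 at 24 and 48 h. The late logFC of −0.335 was lower than that of CDK6, which has 2 matches. Per kb of exon at 0 h CDKN1B (9.04) followed CCND1 and CDK4, ahead of CCNE2 (8.68), CDC25A (8.65) and CHEK1 (8.61), which were close to each other. CDK6 and CCND3 (7.34 each), CCNE1 (6.77) and WEE1 (6.56) came last. Lengths from a single transcript gave another order after CDK4 and CCND1: CHEK1 (9.51), CDKN1B (9.12), CCNE2 (9.08), CCND3 and CDC25A (8.82 each), WEE1 (7.99), CDK6 (7.42) and CCNE1 (7.41).

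Time by time, 1, 4, 5 and 7 of the 10 genes were past −0.5, where the shares of all genes were 3.34%, 2.53%, 5.26% and 8.96%. None of the 10 was past 0.5 upward in any of these comparisons, as 3.38%, 3.31%, 7.24% and 10.4% of all genes were. The 4 genes at 12 h were CCND3, CCNE1, CDC25A and WEE1. CCND1 and CCNE2 joined at 24 h, when CCNE1 lay just short at −0.46, and CHEK1 at 48 h. The median logFC of the 10 was −0.15, −0.37, −0.53 and −0.735 at these times, with the median of all genes at 0.0 each time.

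Against the 0 h library, which both mimics share as reference, 8 of the 10 genes were past −0.5 at the late times with miR-16, where 11.7% of all genes were. The exceptions were CCND1, at −0.07, and CDKN1B, at −0.29. With miR-CTR, 2 of the 10 were past −0.5 (CCNE2 and CDK6), where 9.79% of all genes were. Counted at 6, 12, 24 and 48 h, the genes past −0.5 from 0 h were 2, 5, 8 and 8 with miR-16 (all genes, 5.34%, 3.19%, 8.55% and 16.2%). The same counts with miR-CTR were 1, 1, 2 and 2 (all genes, 3.98%, 4.50%, 7.86% and 13.9%). The falls with miR-16 ranged from −0.575 (CDK4) to −1.77 (CCNE2) among the 8. Within miR-CTR, none of the 10 differed between 6 and 12 h by more than 0.5 (5.99% of all genes did), and 2 of them, CCNE2 and CDK6, differed between 24 and 48 h (11.7% of all genes did).

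**Figure D4:**
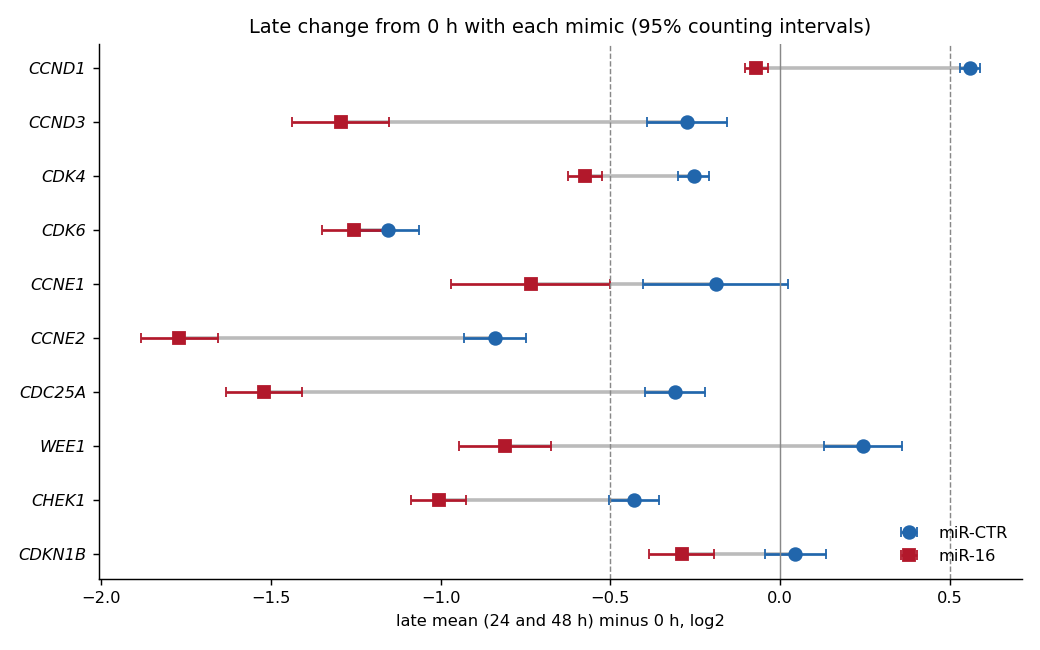
Late level (mean of 24 and 48 h) minus the 0 h level, in log2 (x axis), for each gene with miR-CTR (blue circles) and miR-16 (red squares), with 95% counting intervals and dashed lines at −0.5 and 0.5. The points lie far apart for CDC25A and WEE1, close together for CDK6 (−1.155 and −1.255), and on either side of 0 for CCND1, WEE1 and CDKN1B.

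The genes around these 10 in the same pathway were described from lists of their own. Of 7 measured cyclins and kinases that act beside them (CCNA2, CDK2, CDK7, CCNH, MNAT1, CCNC and CDK8), none was past 0.5 late either way. The largest were CDK8 (0.395) and CDK2 (−0.30), and the median was −0.07. Of all genes, 5.73% were that much lower and 7.76% that much higher, and none in so short a list is near those shares. At 12 h, CCNA2 (0.80) and CDK8 (0.52) were past 0.5 upward, as 3.31% of all genes were. CDK2 adjoins the highly expressed PMEL gene, and a part of PMEL reads in its value was not tested. Among 7 CDK inhibitors or related genes other than CDKN1B, CDKN2C (p18) and CDKN2D (p19), inhibitors of CDK4 and CDK6, had a late logFC of −0.845 and −0.66, and CDKN2B (p15) one of 0.57, around a list median of −0.125. CDKN2D is in the lowest 25% of genes by mean level, its late counting standard error was 0.149, and its logFC at 12 h was 0.22. Beside the 5.73% of all genes past −0.5 late, 3 of 15 ubiquitin ligase parts that act on G1 regulators were, namely BTRC (−0.825), which takes part in the destruction of CDC25A and WEE1, FBXW7 (−0.575), which targets cyclin E, and DTL (−0.87), the substrate receptor of a CUL4 ligase. None of these 15 was past 0.5 upward, and their median was −0.095.

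Of the 13 pocket proteins and E2F or DP factors that the kinases act on, 5 were past −0.5 late: RBL1 (−0.58), E2F1 (−0.68), E2F2 (−0.755), E2F7 (−0.81) and E2F8 (−0.61), with a list median of −0.175. Among 22 genes of DNA synthesis under E2F control, 11 were past −0.5, from TYMS (thymidylate synthase), at −0.505, to UHRF1, at −0.64, and the median was −0.50. The other 9 were the replication factors MCM2, MCM5, CDC6, CDC45, GINS1 and GINS2, the ribonucleotide reductase subunits RRM1 and RRM2, and the primase subunit PRIM1. Of 10 genes of entry into mitosis 4 were past −0.5, namely CDK1 (−0.73), PKMYT1 (−0.755), PLK1 (−0.515) and CCNF (−0.78), with a median of −0.44. Of 16 genes of ATR-CHK1 and ATM-CHK2 signalling, around CHEK1, only CLSPN (claspin) was, at −0.80, a share close to the 5.73% of all genes, and the median was −0.143. At 12 h, 4 of the 10 genes were past −0.5 but none of the 22 DNA synthesis, 10 mitotic entry or 13 pocket and E2F genes. Of all genes, 2.53% were past −0.5 at 12 h, and a count of none in lists this short is near that share. Other lists did hold early calls: at 12 h, 2 of the 15 ubiquitin ligase parts (BTRC, −0.60, and FBXW7, −0.52) and 1 of the 7 CDK inhibitors (CDKN1A, −0.53) were past −0.5. For the DNA synthesis, mitotic entry and pocket and E2F lists, the 24 h counts against 5 of the 10 were 0, 0 and 1, and at 48 h they were 7 of 10 against 18 of 22, 8 of 10 and 5 of 13. The shares of all genes were 5.26% at 24 h, which the counts of these 3 lists were near, and 8.96% at 48 h. No test of the difference in timing between lists was run, with 1 library per condition.

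**Figure D5:**
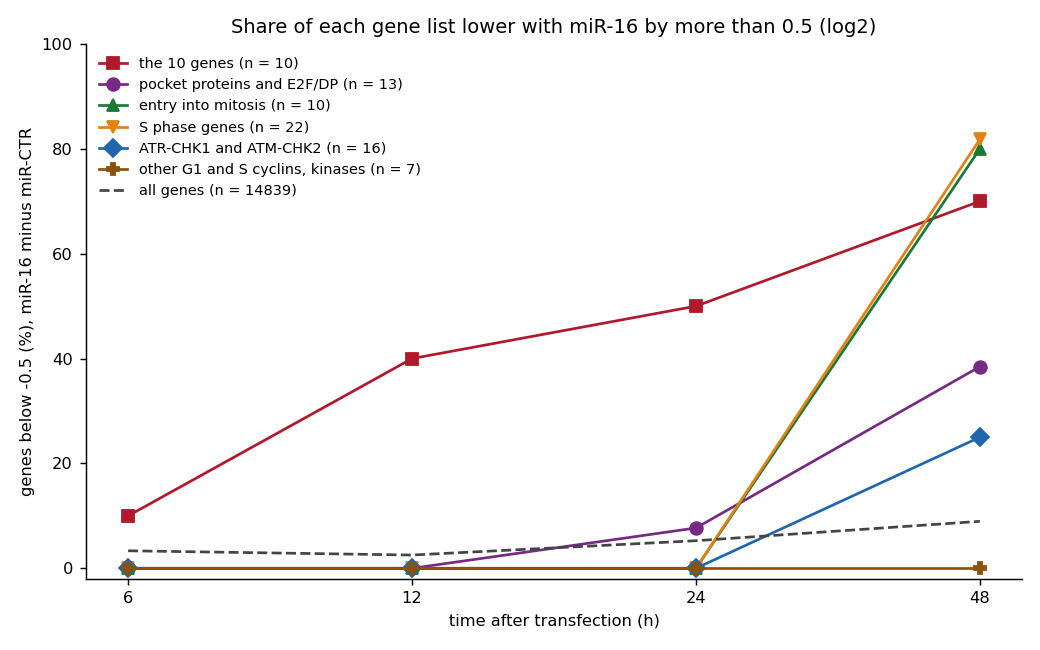
Percent of each gene list with a logFC below −0.5 (y axis) at 6, 12, 24 and 48 h (x axis, evenly spaced), for the 10 genes, 5 other lists and all 14839 genes (dashed). The 10 genes are past the threshold in part from 6 h on, and the DNA synthesis and mitotic entry lists only at 48 h.

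Over the whole table, genes with a seed match of 7 bases or more had a median late logFC of −0.085 and 9.82% of them were past −0.5, against 0.015 and 3.65% of genes without. Of the 9 genes with a match here 7 were past −0.5, and their late logFC ran from −1.21 to −0.10. The 5 with an 8mer (CDC25A, WEE1, CCND1, CHEK1 and CCNE1) and the 2 with 7mers only that passed (CCND3 and CCNE2) overlapped in size. The earliest calls, at 6 and 12 h, were in genes with at least 2 matches, and CCNE2 and CHEK1, with 1 match each, were past −0.5 only from 24 or 48 h on. CCND1, with 2 matches, was past it only from 24 h on too, and CDK6, with 2, at no time. A relation between the number of matches and the timing was not tested.

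Compared by all 8 changes from 0 h among 11119 genes above the lowest 25% of mean level, the closest courses differed by a root mean square of 0.0369 (NUCKS1, for CDKN1B) to 0.2049 (CLSPN, for CCNE2) in log2 units. The nearest to the D cyclins were OSTM1 (0.08, CCND1) and MAPK8IP2 (0.1149, CCND3), and to their kinases ANKRD17 (0.0409, CDK4) and STAMBPL1 (0.1703, CDK6). AP5S1 (0.1197) was the nearest to CCNE1, ANLN (0.1426) to CDC25A, ZDHHC12 (0.1084) to WEE1 and FIGNL1 (0.0634) to CHEK1. MYBL1 was among the 3 nearest of both CCND3 and CDC25A. Among the 10 themselves, CCNE1 and CDK4 were the most alike (0.203) and CCND3 and CDC25A next (0.227), and CCND1 and CCNE2 were the least alike (1.211).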

How the data were processed

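The authors deposited normalised log2 values of polyA RNA for 14839 genes in 9 libraries, with 2 decimals. The submitters' processing notes name FastQC, STAR (2.4.0a), featureCounts of Subread (1.5.0-p3) and the hg38/GRCh38 build. The normalization tool, annotation and strand setting are not given in the sources used here. Low values were whole multiples of a step of 0.8536 to 1.1496 in each library, so the values were read as log2(reads / size factor + 1), and reads were recovered by dividing by the step. The 5 time codes of the column names (T0, T1, T2, T4 and T5, with no T3) were assumed to stand, in order, for 0, 6, 12, 24 and 48 h. Library medians lay between 9.13 and 9.17, and no further scaling was applied. Differences, counting intervals (95%, Poisson) and seed matches (GENCODE 29, longest 3′UTR) were computed with Python 3.11.15, pandas 2.3.3 and numpy 2.4.6, and were tested on simulated data. Like-length 3′UTRs were those within 20% of a gene's length. Matching by symbol reached 12985 genes of the table (87.5%).

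The 10 genes and the gene lists were chosen with earlier results of these data known. Named were all 10, from each list every gene past 0.5 in late logFC or otherwise the 2 largest, and the nearest genes by course, of which mainly the closest to each gene are given.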

Additional observations from a re-analysis of the deposited data

Results flagged for a closer look

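WEE1 was flagged because its late change from 0 h was 0.245 with miR-CTR and −0.81 with miR-16, with all 4 libraries of the control mimic above the 0 h library and all 4 of miR-16 below it. The difference between the mimics was not tested, since each condition has 1 library. The 0 h library is the reference of both changes, and 98 of 14839 genes (0.660%) showed this pattern. The counting interval held both signs for miR-16 at 6 h minus 0 h (−0.234 to 0.054) and for miR-CTR at 12 h minus 0 h (−0.013 to 0.253).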

How the results depend on the processing

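No paired analysis was possible because each condition has 1 library and the labels give no replicate numbers. Libraries were matched only by time, through the logFC at each time, and a model over times was not run. Quantile normalization, centring on the median gene and scaling to recovered reads left 7 genes past −0.5 late, 2 early, 8 from 0 h with miR-16 and 1 above 0.5 from 0 h with miR-CTR, with a median late logFC between −0.607 and −0.589. None of 70 alternative values of single genes changed sign or crossed 0.5, and the largest shift was 0.046. Leaving out genes in the lowest 25% of mean level bears on none of the 10, which all lie above it. A threshold of 1.5-fold gave 5 late, 7 from 0 h with miR-16, 1 early and 0 above 0 h with miR-CTR. The share of all genes at that threshold was not computed. Requiring −0.5 at both 24 and 48 h gave 5 (all genes, 2.78%). Using 24 h alone gave 5 (all genes, 5.26%), and 48 h alone gave 7 (all genes, 8.96%). The count of 9 genes with a seed match was 5 for 8mers only, 4 in coding sequence (all genes, 36.7%) and, in an alternative chosen after seeing the data, 8 with the transcript of the longest coding sequence (all genes, 24.9%). With 1 library per condition, variation between cultures is unknown in these data, and intervals cover counting error only. By RT-qPCR in independent experiments, the study reports CCND3 and WEE1 among targets lowered by miR-16 in MP41 and other uveal melanoma lines. Those experiments were read at a later time than the libraries here. Depth limits CCNE1 (138 to 346 reads) most.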

Other observations

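Cyclin A2 (CCNA2), which binds CDK2 in S phase, took a course unlike that of the D and E cyclins and was singled out after its values were seen. It stood at 11.60 at 0 h, at 11.42, 10.79, 10.61 and 10.52 with miR-CTR and at 11.97, 11.59, 11.08 and 10.52 with miR-16. It was higher with miR-16 by 0.55 at 6 h and 0.80 at 12 h, where 3.38% and 3.31% of all genes were above 0.5, and equal at 48 h. Its late change from 0 h was −1.035 with miR-CTR and −0.80 with miR-16.

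CDKN2B (p15), an inhibitor of CDK4 and CDK6, was the 1 gene of the CDK inhibitor list past 0.5 upward late, at 0.57, as 7.76% of all genes were. It stood at 7.19 with miR-CTR and 8.14 with miR-16 at 48 h, a difference of 0.95, while at 6, 12 and 24 h its logFC was −0.11, −0.29 and 0.19, so the late call rests on the 48 h libraries.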
